A study of Homo sapiens with 12 samples.

Results

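TRAIL (gene TNFSF10), 4 death receptor genes (TNFRSF10A, TNFRSF10B, TNFRSF10D and FAS), the receptor-complex genes CASP8 and CFLAR, and the inhibitor of apoptosis (IAP) genes BIRC2, BIRC3 and XIAP were examined in cells given the TEAD inhibitor SWTX-143. These 10 genes were taken by symbol from the 27064 gene symbols of the count tables, and all 10 were listed there. None was dropped for its values, but the list was chosen with earlier results of these data known. The NCI-H226 mesothelioma line (H226) and the ACHN kidney cancer line, both established cultures that the submitters describe as NF2-deficient, were each split into cells given 100 nM SWTX-143 overnight and control cells given DMSO. TEAD proteins are the DNA-binding partners of YAP and TAZ, the coactivators that the Hippo pathway restrains, and loss of NF2 releases that restraint. Each of the 4 groups held 3 poly(A) RNA libraries. Nothing in the labels states that these were separate cultures, and p-values therefore cover the spread between the 3 libraries alone, which may be technical.

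In the extrinsic death pathway, TRAIL binds DR4 (TNFRSF10A) and DR5 (TNFRSF10B), and the Fas ligand binds FAS. The bound receptors recruit the adaptor FADD and caspase-8 into a death-inducing complex. The decoy receptor DcR2 (TNFRSF10D) binds TRAIL but has a truncated death domain. The c-FLIP protein (CFLAR) takes the place of caspase-8 in the complex and limits caspase-8 activation. The cellular IAPs cIAP1 (BIRC2) and cIAP2 (BIRC3) are ubiquitin ligases that hold TNF receptor complexes in an NF-kB signalling state, while XIAP binds and blocks active caspases.

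Total counts ran from 9690980 to 11262663 per library. Levels are given as CPM, the counts scaled to TMM-adjusted library size, with SD over n = 3 libraries, and fold changes as log2 of SWTX-143 over DMSO with SE, from which 95% intervals were drawn. A gene was called when its adjusted p from the edgeR quasi-likelihood F test, with Benjamini-Hochberg adjustment over all tested genes of the comparison, was under 0.05. The TEAD targets CTGF, CYR61 and ANKRD1 fell in both lines, and CTGF fell by 2.53 in H226 and fell by 2.39 in ACHN on the log2 scale. The summed level of 7 mesothelial markers was 3890 to 4160 CPM in treated and 3380 to 3540 CPM in DMSO H226 cells, against 152 to 160 CPM in treated and 183 to 186 CPM in DMSO ACHN cells. The ACHN sum was nearly all from LRRN4, at 149 CPM in treated and 177 CPM in DMSO cells. Mesothelin (MSLN) was at 198 ± 1.99 CPM in DMSO H226 cells and 0.784 ± 0.282 CPM in DMSO ACHN cells. The 6 kidney markers summed to 16.2 to 18.2 CPM in treated and 8.70 to 10.3 CPM in DMSO H226 cells, against 742 to 796 CPM in treated and 725 to 755 CPM in DMSO ACHN cells. Most of the H226 kidney sum was LHX1, at 14.9 CPM in treated and 8.05 CPM in DMSO cells. The immune markers summed to 13.8 to 17.2 CPM in treated and 10.5 to 12.8 CPM in DMSO H226 cells, and to 56.5 to 65.5 CPM in treated and 42.7 to 45.4 CPM in DMSO ACHN cells. Most of that sum was the lysosomal gene CD68, and 1 to 3 of the 5 immune markers were at 0 in each group. The endothelial sum in H226, 150 to 165 CPM in treated and 218 to 229 CPM in DMSO cells, was nearly all from KDR, and in ACHN it stayed at or under 0.366 CPM. The part of these marker levels in the results below was not tested. In bulk RNA, fewer cells with a transcript and less of it per cell cannot be told apart.

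The upstream sequences of BIRC3 and TNFSF10 are shown because these genes had the largest fold changes among the 10. Both are the 250 bases before the RefSeq transcription start on GRCh38.p14, written 5′ to 3′ on the gene's strand. The BIRC3 stretch is chr11:102317234-102317483 on the plus strand and the TNFSF10 stretch is chr3:172523431-172523680 on the minus strand. Capitals mark 2 matches to the NF-kB consensus in BIRC3 and 1 to an interferon response element (GAAA, any 2 bases and GAAA again) in TNFSF10, all of them read on the opposite strand.
BIRC3: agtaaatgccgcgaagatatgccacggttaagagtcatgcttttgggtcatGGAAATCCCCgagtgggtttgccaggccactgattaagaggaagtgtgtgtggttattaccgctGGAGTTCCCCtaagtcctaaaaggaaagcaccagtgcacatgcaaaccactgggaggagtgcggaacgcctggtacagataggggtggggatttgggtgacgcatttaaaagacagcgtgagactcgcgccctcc
TNFSF10: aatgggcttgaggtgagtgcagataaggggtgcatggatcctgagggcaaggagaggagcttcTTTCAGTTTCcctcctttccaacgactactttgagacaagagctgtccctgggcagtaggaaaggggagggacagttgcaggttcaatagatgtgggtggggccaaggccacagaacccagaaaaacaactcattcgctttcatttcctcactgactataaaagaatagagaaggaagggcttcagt

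Promoter windows of 300 bases, from 250 before to 50 after the start, were at hand for 7 of the 10 genes, 17 windows in all, and both strands were searched. The NF-kB consensus matched BIRC3 at −199 and −135, CFLAR at −97 in 1 of 4 windows and FAS at −157 in 1 of 3 windows, all counted from the start. It was present in 5.91% of 35116 windows of the same length over the genome. The interferon element matched TNFSF10 at −187 and CASP8 at −3 in 1 of 3 windows, and was present in 3.57% of all windows. The TEAD core GGAATG, present in 14% of all windows, matched 0 of the 17. No motif matched the same bases as another. These matches describe the letters of the windows and show no binding.

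**Figure D1:**
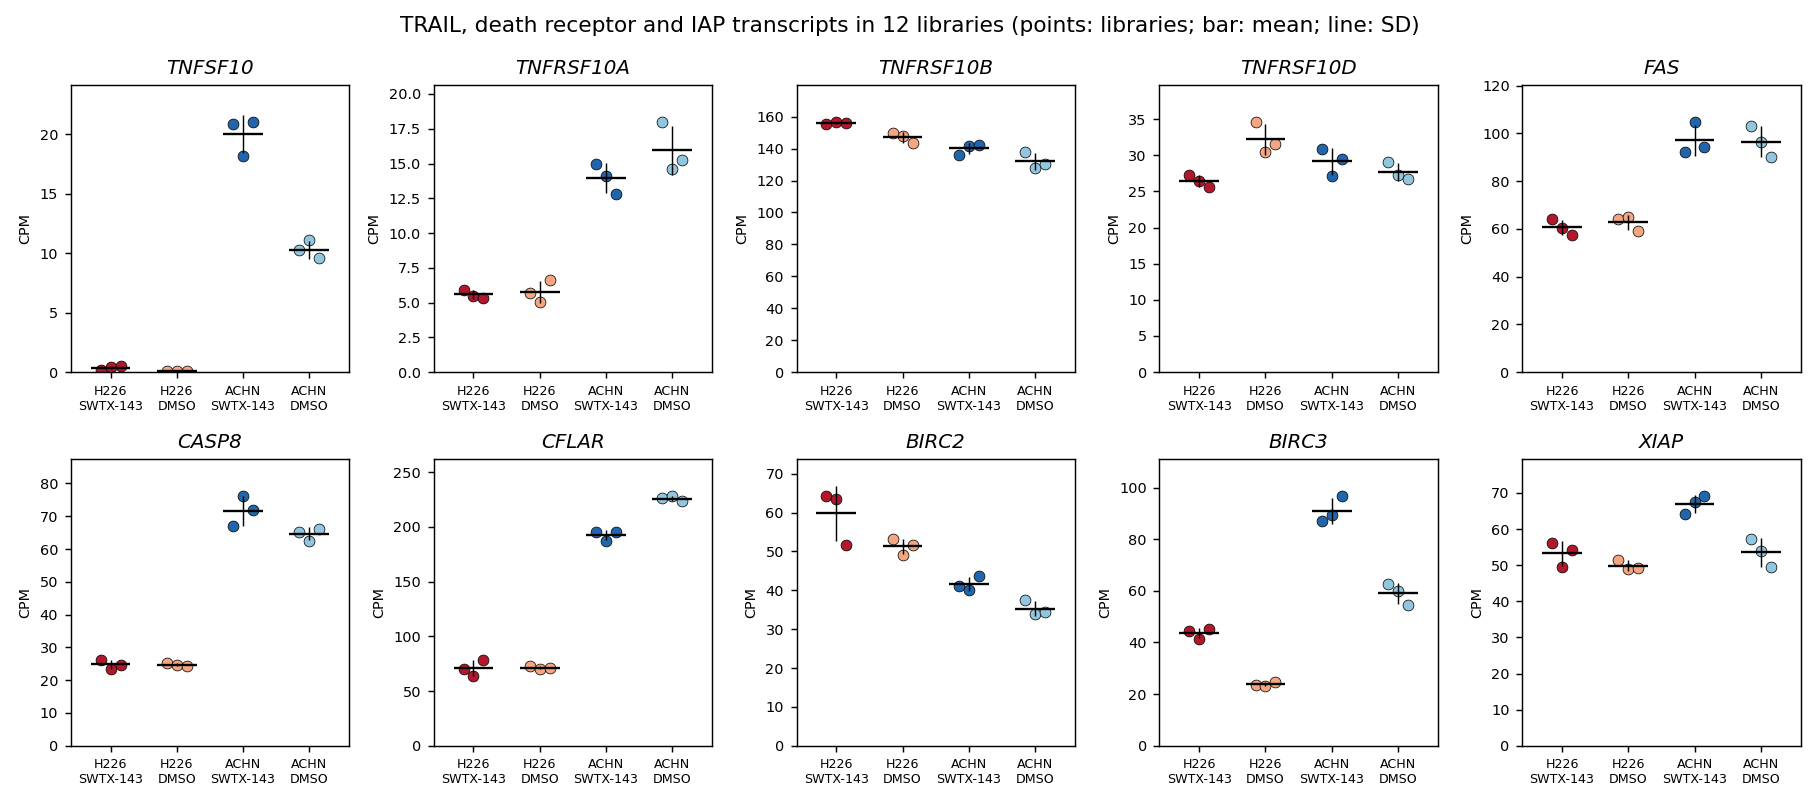
Level of each of the 10 transcripts in CPM (vertical axes, each from 0) in the 12 libraries, with the H226 groups left of the ACHN groups and SWTX-143 left of DMSO. Points are libraries, bars the mean and lines the SD. TNFSF10 in ACHN was at 18.2 to 21 CPM with SWTX-143 and at 9.55 to 11.1 CPM with DMSO, and BIRC3 was higher with SWTX-143 in both lines without overlap.

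TNFSF10, the TRAIL ligand gene on chromosome 3 (GRCh38, chr3:172505508-172523507, minus strand), rose in ACHN and was near the counting limit in H226. In ACHN it was at 20.9, 18.2 and 21 CPM with SWTX-143, against 10.3, 11.1 and 9.55 CPM with DMSO. All 3 treated libraries lay above all 3 DMSO libraries. The fold was 1.93 (log2 fold change 0.95 ± 0.10, adjusted p = 1.43e-10), and no alternative ended the call.

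In H226 the gene had 2, 5 and 5 counts with SWTX-143, against 1 count in each DMSO library, too few for the count filter. The pooled 12 counts against 3, scaled to library size, gave a ratio of 3.83 with an exact 95% interval of 1.03 to 21.1, which covers counting error only. With no filter, edgeR gave a log2 fold change of 1.80 ± 0.89 with an adjusted p of 0.126, and DESeq2 an adjusted p of 0.378. All treated libraries lay above all DMSO libraries, and the unadjusted p of that edgeR test was 0.0424. After adjustment neither test called a change of TRAIL RNA in H226 at this depth. The difference between the lines, H226 effect minus ACHN effect, was 0.86 ± 0.76 (adjusted p = 0.532), with an interval of −0.64 to 2.35. In that fit of both lines the gene passed the count filter through its ACHN counts alone.

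Among the receptors, the only call was a fall of the decoy receptor TNFRSF10D in H226. Of the 4 receptor genes tested in each line, 1 was called lower in H226, where 21.6% of all tested genes were called lower, and 0 were called in ACHN, where 17.8% of genes were called in either direction. At an unadjusted edgeR p under 0.05, 1 of the 4 passed in ACHN, TNFRSF10A, and DESeq2 called 0 of them there. TNFRSF10A, TNFRSF10B and TNFRSF10D lie in a cluster on chromosome 8, and FAS is on chromosome 10 (chr10:88990582-89015785, plus strand).

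TNFRSF10D was at 27.3, 26.4 and 25.6 CPM in SWTX-143 H226 libraries, against 34.6, 30.5 and 31.6 CPM in DMSO libraries. Every treated library was below every DMSO library, a fall by 0.30 ± 0.08 on the log2 scale (adjusted p = 0.00131). In ACHN the same gene was at 30.8, 27.2 and 29.5 CPM with SWTX-143, against 29, 27.2 and 26.7 CPM with DMSO. The ACHN groups overlapped, and the log2 fold change was 0.06 ± 0.08 (adjusted p = 0.626).

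The agonist receptor gene TNFRSF10B (DR5) was not called in either line. H226 had 155, 156 and 156 CPM with SWTX-143, against 150, 148 and 143.3 CPM with DMSO. The H226 groups did not overlap, but the log2 fold change of 0.08 ± 0.05 missed the limit (adjusted p = 0.184), and it passed under library size alone (adjusted p = 0.0314) and upper-quartile scaling (adjusted p = 0.0229). In ACHN, TNFRSF10B was at 136, 142 and 142.6 CPM with SWTX-143, against 138, 128 and 130 CPM with DMSO, and the groups overlapped (0.07 ± 0.04, adjusted p = 0.291). Both 95% intervals spanned −0.01 to 0.16.

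TNFRSF10A (DR4), the gene of the other agonist TRAIL receptor, was not called either. It was at 5.93, 5.49 and 5.34 CPM in treated H226 cells, against 5.67, 5.05 and 6.61 CPM in DMSO H226 cells, with a log2 fold change of −0.05 ± 0.16 (adjusted p = 0.834). In ACHN it was at 14.9, 14.1 and 12.8 CPM with SWTX-143, against 18.0, 14.6 and 15.3 CPM with DMSO (−0.21 ± 0.10, adjusted p = 0.164). The groups overlapped in both lines.

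FAS, the Fas ligand receptor, showed no call in either line. It was at 63.9, 60.6 and 57.6 CPM with SWTX-143, against 64.2, 65.0 and 59.3 CPM with DMSO, in H226 (−0.06 ± 0.06, adjusted p = 0.422). In ACHN it was at 92, 105 and 94.5 CPM with SWTX-143, against 103, 96.2 and 90.1 CPM with DMSO (−0.0080 ± 0.05, adjusted p = 0.945). The groups overlapped in both lines, and the 95% intervals, −0.18 to 0.05 in H226 and −0.11 to 0.09 in ACHN, leave room for small changes in either direction. FAS ligand (FASLG) had 0 counts in all 12 libraries.

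In the signalling complex, the caspase-8 inhibitor gene CFLAR fell in ACHN. Both genes lie on chromosome 2, CFLAR at chr2:201116104-201176687 and CASP8 at chr2:201233443-201287711, both on the plus strand. CFLAR was at 195, 188 and 195 CPM in treated ACHN cells, against 226.2, 228 and 223 CPM in DMSO ACHN cells. The treated and DMSO libraries did not overlap, and CFLAR fell by 0.24 ± 0.04 on the log2 scale (adjusted p = 2.26e-06), in a line where 9.37% of genes were called lower.

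In H226, CFLAR was at 70.3, 63.6 and 78.3 CPM with SWTX-143, against 73.2, 70.2 and 71.2 CPM with DMSO. The treated H226 libraries spread around the DMSO ones (−0.03 ± 0.06, adjusted p = 0.773). CFLAR shares 777 exonic bases with its antisense gene CFLAR-AS1, which fell by 0.34 ± 0.11 in ACHN (adjusted p = 0.0208) to 11.4 CPM with SWTX-143, against 14.3 CPM with DMSO. The counting strand is not given in the sources used here, so reads from the shared bases cannot be assigned to either gene. CFLAR also shares 1488 exonic bases with the pseudogene IMPDH1P10 on the opposite strand and 445 with AC007283.1 on the same strand. Neither of these is listed in the count tables.

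CASP8, the initiator caspase of the complex, was not called. In ACHN it was at 66.9, 76.1 and 71.9 CPM with SWTX-143, against 65.1, 62.5 and 66.2 CPM with DMSO, so that all 3 treated libraries were above all 3 DMSO libraries. The log2 fold change of 0.13 ± 0.05 missed the limit (adjusted p = 0.0943), and it passed under library size alone (adjusted p = 0.035), under upper-quartile scaling (adjusted p = 0.0419) and without SWTX-143 replicate 1 (0.18, adjusted p = 0.0299). In H226, CASP8 was at 26.2, 23.5 and 24.7 CPM with SWTX-143, against 25.3, 24.7 and 24.2 CPM with DMSO. Those groups overlapped, and the log2 fold change was −0.0061 ± 0.08 (adjusted p = 0.963), with a 95% interval of −0.17 to 0.15.

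The IAP genes held 5 of the 8 calls made over both lines. BIRC3 and BIRC2 rose in both lines and XIAP rose in ACHN. BIRC3 and BIRC2 are neighbours on chromosome 11 (chr11:102317450-102339403 and chr11:102347211-102378670, both plus strand), and XIAP is on the X chromosome (chrX:123859724-123913979, plus strand). Of the 3 IAP genes, 2 were called higher in H226, where 19.0% of tested genes were called higher, and 3 in ACHN, where 8.43% were. These counts describe genes chosen with earlier results known.

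BIRC3, the cIAP2 gene, had the smallest p of the 10 in each line. In H226 it was at 44.6, 41.3 and 45.2 CPM with SWTX-143, against 23.4, 23.2 and 24.7 CPM with DMSO. The lowest treated library was well above the highest DMSO library, with a fold of 1.83 (log2 fold change 0.87 ± 0.07, adjusted p = 8.03e-15). In ACHN it was at 87.0, 89.5 and 96.7 CPM with SWTX-143, against 62.5, 60.1 and 54.3 CPM with DMSO. The ACHN groups were also apart, with a fold of 1.53 (0.61 ± 0.06, adjusted p = 7.71e-13). Both calls held under every alternative tried, and leaving out 1 library at a time gave 0.85 to 0.91 in H226 and 0.55 to 0.66 in ACHN.

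BIRC2, the cIAP1 gene next to it, rose in both lines, with calls that rested on few libraries. In H226 it was at 64.2, 63.5 and 51.5 CPM with SWTX-143, against 53.2, 49.1 and 51.5 CPM with DMSO. The third treated library lay within the DMSO range, and the log2 fold change was 0.21 ± 0.07 (adjusted p = 0.0102). That call was lost without SWTX-143 replicate 1 (0.16, adjusted p = 0.0943), SWTX-143 replicate 2 (0.17, adjusted p = 0.0773) or DMSO replicate 2 (0.18, adjusted p = 0.0522).

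In ACHN, BIRC2 was at 41.2, 40.1 and 43.7 CPM with SWTX-143, against 37.5, 33.9 and 34.4 CPM with DMSO. The ACHN groups were apart, with a log2 fold change of 0.23 ± 0.07 (adjusted p = 0.0114). The ACHN call was lost under DESeq2 (adjusted p = 0.0803) and without SWTX-143 replicate 3 (0.19, adjusted p = 0.076), DMSO replicate 2 (0.20, adjusted p = 0.0602) or DMSO replicate 3 (0.21, adjusted p = 0.0666).

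XIAP, the caspase-binding IAP, was at 64.3, 67.6 and 69.1 CPM in treated ACHN cells, against 57.4, 53.8 and 49.4 CPM in DMSO ACHN cells. The groups did not overlap, and the rise was 0.31 ± 0.06 (adjusted p = 5.53e-05). In H226 it was at 56.2, 49.5 and 54.1 CPM with SWTX-143, against 51.6, 48.8 and 49.1 CPM with DMSO, and the groups overlapped (0.09 ± 0.06, adjusted p = 0.286).

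**Figure D2:**
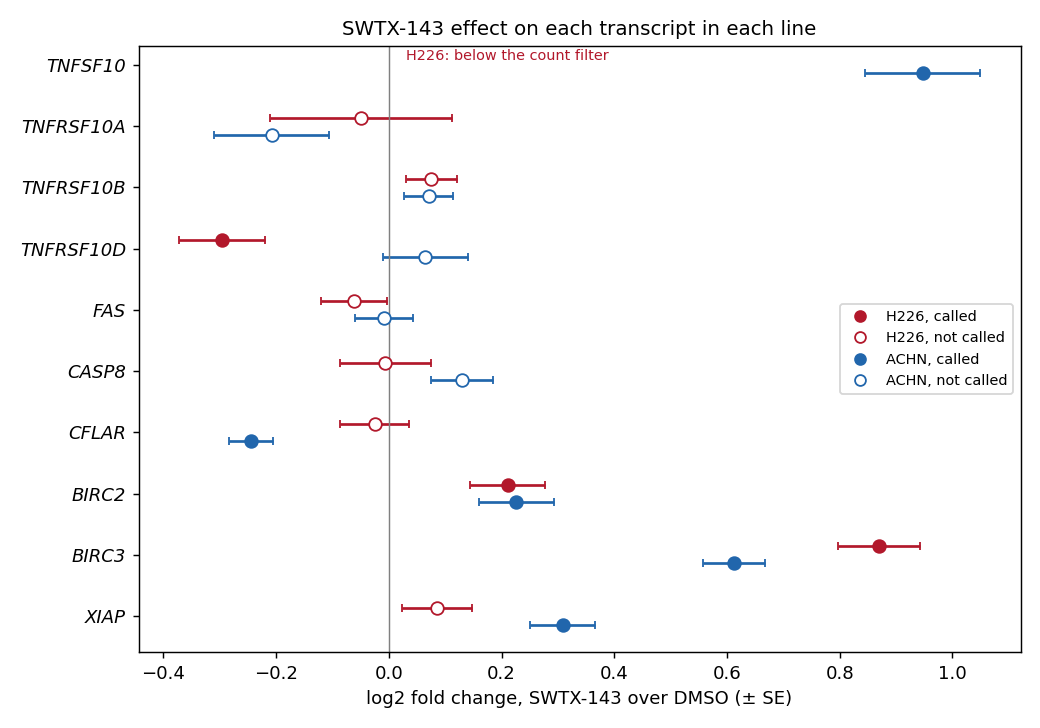
Log2 fold change of SWTX-143 over DMSO with its SE (horizontal axis) for each of the 10 genes, H226 above ACHN in each row. Filled points passed the adjusted p limit of 0.05. BIRC3 and BIRC2 are filled on the right in both lines, TNFSF10 and XIAP in ACHN, and the filled points on the left are TNFRSF10D in H226 and CFLAR in ACHN.

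Over all 10 genes, 3 of the 9 tested in H226 were called, 2 higher and 1 lower, beside 40.7% of the 13484 tested genes. In ACHN 5 of 10 were called, 4 higher and 1 lower, beside 17.8% of 13483 genes, 8.43% higher and 9.37% lower. As the 10 genes were chosen with earlier results known, these counts are a description and not a test. The median log2 fold change was −0.0061 over the 9 genes in H226 and −0.0011 over all tested genes. In ACHN it was 0.10 over the 10 genes and 0.0013 over all tested genes. Calls over all genes were 46.8% higher in H226 under TMM and 58.6% under upper-quartile scaling. In ACHN they were 47.4% higher under TMM and 61.1% under library size alone. BIRC2 and BIRC3 were called in both lines, in the same direction. TNFRSF10D was called in H226 alone, and CFLAR, XIAP and TNFSF10, which was not tested in H226, in ACHN alone. TNFRSF10A, TNFRSF10B, FAS and CASP8 were called in neither. The share of all genes called in both lines was not computed, so this overlap is a description.

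A call in 1 line alone does not show a difference between lines, so the H226 effect minus the ACHN effect was tested in 1 fit of all 12 libraries. In that contrast 15.6% of 14664 genes were called, 5.89% with a higher and 9.70% with a lower effect in H226, and 37.8% of those calls were higher under TMM against 52.6% under upper-quartile scaling. Of the 10 genes, TNFRSF10D (−0.37 ± 0.11, adjusted p = 0.0105) and CFLAR (0.21 ± 0.07, adjusted p = 0.0291) were called. The TNFRSF10D difference was lost under DESeq2 (adjusted p = 0.0859), without H226 DMSO replicate 1 (−0.28, adjusted p = 0.102) and without H226 SWTX-143 replicate 3 (−0.30, adjusted p = 0.0609). The CFLAR difference was lost without H226 SWTX-143 replicate 3 (0.18, adjusted p = 0.0905), ACHN SWTX-143 replicate 2 (0.19, adjusted p = 0.0753) or ACHN DMSO replicate 2 (0.21, adjusted p = 0.0582).

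BIRC3 and XIAP lay close to the limit. The BIRC3 effect was larger in H226 by 0.25 ± 0.09 (adjusted p = 0.0528), and the XIAP effect was smaller in H226, with a difference of −0.23 ± 0.09 (adjusted p = 0.0552). BIRC3 passed under median-of-ratios, upper-quartile or library size scaling and with no low-count filter, where its adjusted p was 0.0205 to 0.0391. Leaving out 1 library at a time gave BIRC3 differences of 0.21 to 0.33 with adjusted p of 0.0147 to 0.147, and XIAP differences of −0.28 to −0.14 with adjusted p of 0.0205 to 0.356. The BIRC2 rises of 0.21 in H226 and 0.23 in ACHN gave a difference of −0.02 ± 0.10 and a 95% interval of −0.21 to 0.17.

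Under DMSO the lines held different amounts of most of these transcripts. H226 was higher than ACHN for 3 of the 10 genes and lower for 6, and XIAP was not called (−0.10 ± 0.06 on the log2 scale, H226 over ACHN, adjusted p = 0.122), in a contrast where 84.4% of genes were called, 42.2% in each direction. Each line came as a table of its own, so the line and its handling cannot be told apart. TNFSF10 had 3 counts in the DMSO H226 libraries together and 341 in the DMSO ACHN libraries, a ratio of 0.00968 with a counting interval of 0.00199 to 0.0285. TNFSF10 is among the 6 lower genes, but it passed the count filter of this fit only through ACHN, where it is high. Its call is therefore a description and adds no support.

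The other genes lower in H226 under DMSO were CFLAR by 1.66, TNFRSF10A by 1.47, CASP8 by 1.38, BIRC3 by 1.31 and FAS by 0.62 on the log2 scale. Those higher in H226 were BIRC2 by 0.54, TNFRSF10D by 0.22 and TNFRSF10B by 0.16. Library size alone shifted the median of all genes by −0.16 in this contrast. Relative to that scaling TNFRSF10D was no longer called (0.06, adjusted p = 0.441), TNFRSF10B was at −0.0045 (adjusted p = 0.926) and XIAP was called lower (−0.26, adjusted p = 0.000128).

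Levels between genes were compared per kb of the GENCODE principal transcript. In DMSO H226 cells the order in CPM per kb was TNFRSF10B at 35.5, FAS at 24.5, CASP8 at 15.2, BIRC2 at 12.6, TNFRSF10D at 9.11, XIAP at 5.80, CFLAR at 4.87, BIRC3 at 4.57, TNFRSF10A at 2.13 and TNFSF10 at 0.0512. Library ranges of neighbours in that order did not overlap. With SWTX-143, BIRC3 reached 8.41 CPM per kb in H226 and stood above TNFRSF10D at 7.47, and only CASP8 and BIRC2, at 15.2 and 14.7, overlapped.

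In DMSO ACHN cells CASP8 at 39.7 and FAS at 37.6 CPM per kb overlapped at the top. TNFRSF10B at 31.9, CFLAR at 15.4, BIRC3 at 11.4, BIRC2 at 8.67 and TNFRSF10D at 7.81 followed without overlap. XIAP at 6.23, TNFRSF10A at 5.88 and TNFSF10 at 5.27 closed the order, and neighbours among these 3 overlapped. With SWTX-143, TNFSF10 stood at 10.2 CPM per kb, level with BIRC2 at 10.3. These orders depend on the length taken for each gene, and the length over which reads were counted is not known. The place of CASP8 rests on its length of 1.63 kb and that of CFLAR on 14.7 kb. Over the 3.94 kb of all its basic exons the DMSO level of CASP8 was 6.28 CPM per kb in H226 and 16.4 in ACHN. By that measure it stood below BIRC2 at 12.07 and TNFRSF10D at 9.11 in H226. CFLAR was at 3.465 and BIRC3 at 3.44 there, and at 10.95 and 8.53 in ACHN.

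The reads of some of these genes may be shared. FAS overlaps ACTA2 on the opposite strand by 380 exonic bases. ACTA2, the smooth muscle actin gene, rose by 0.22 in H226, to 46.7 CPM with SWTX-143 against 40.0 CPM with DMSO, and by 0.20 in ACHN, to 51.7 CPM with SWTX-143 against 44.5 CPM with DMSO. TNFRSF10B overlaps RHOBTB2 by 67 bases, and RHOBTB2 rose in H226 by 0.52. The TRAIL receptor genes are paralogs of each other, as are BIRC2 and BIRC3, and the treatment of reads that match several places is not given in the sources used here.

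Genes around BIRC3 on chromosome 11 were looked up because BIRC3 and BIRC2 lie side by side. Neighbours were ranked among RefSeq genes that are listed in the count tables, and other RefSeq genes were passed over. YAP1, the gene of the TEAD coactivator YAP, is the nearest of these genes before BIRC3. YAP1 rose by 0.13 ± 0.04 in H226 (adjusted p = 0.0137) and by 0.20 ± 0.04 in ACHN (adjusted p = 0.000606). CEP126, 3 genes before BIRC3, rose by 0.99 ± 0.40 in H226 (adjusted p = 0.041), where it was at 1.26 CPM with SWTX-143 and 0.636 CPM with DMSO. CEP126 also rose in ACHN, by 0.49 ± 0.14 (adjusted p = 0.00696). MMP7, a matrix metalloproteinase gene, rose in ACHN by 0.55 ± 0.16 (adjusted p = 0.0124) and had 0 counts in H226. TMEM123, the gene after BIRC2, was not called in either line. Over the 64 nearest neighbours of all 10 genes, 9 of 31 tested were higher and 4 lower in H226, and 6 of 35 were higher and 5 lower in ACHN. The shares over all tested genes were 19.0% higher and 21.6% lower in H226, and 8.43% higher and 9.37% lower in ACHN. Around TNFSF10, NCEH1 fell by 0.53 ± 0.05 in H226 (adjusted p = 1.38e-13) and by 0.25 ± 0.04 in ACHN (adjusted p = 2.69e-05), the phospholipase D gene PLD1 rose by 0.40 and ECT2 fell by 0.21 in H226, and FNDC3B fell by 0.22 in ACHN. Beyond RHOBTB2, the TRAIL receptor cluster is flanked by the nucleotidase gene ENTPD4, which fell by 0.45 in H226 and by 0.42 in ACHN, by LOXL2, a lysyl oxidase family gene, which fell by 0.26 in H226 and by 0.21 in ACHN, and by the mitochondrial iron importer gene SLC25A37, which rose by 0.17 in H226. Near FAS, LIPA, the lysosomal acid lipase gene, rose in ACHN by 0.17 and ACTA2-AS1 by 0.37. In H226, the CASP8 and CFLAR neighbour TRAK2 rose by 0.24 and the XIAP neighbour STAG2, a cohesin subunit gene, by 0.18.

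**Figure D3:**
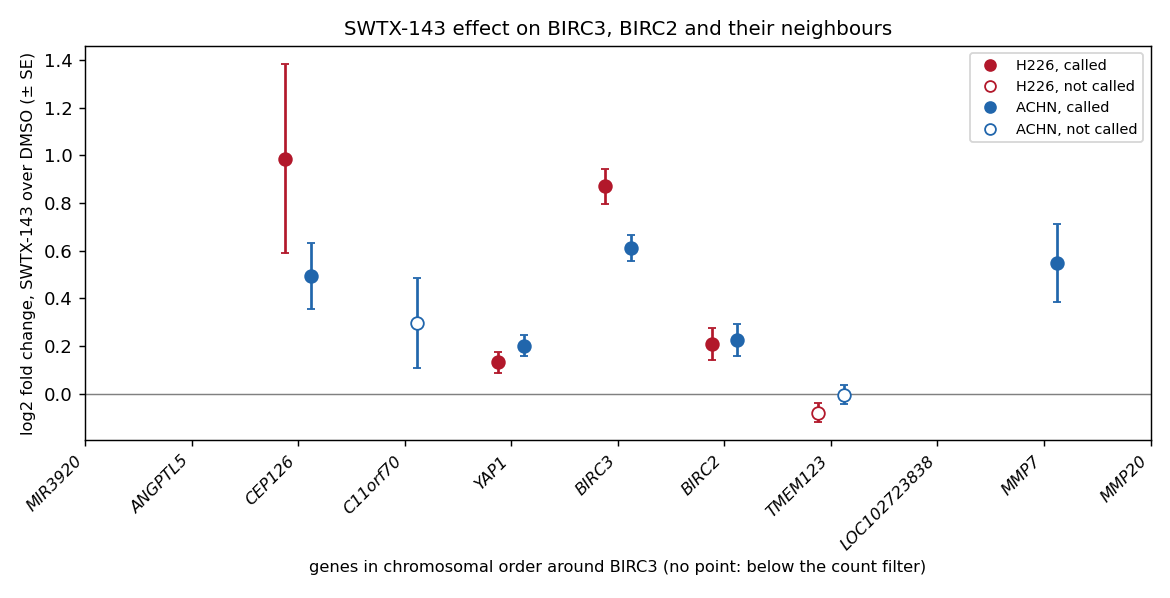
Log2 fold change of SWTX-143 over DMSO with its SE (vertical axis) for BIRC3, BIRC2 and the genes around them, in chromosomal order and not to distance (horizontal axis), H226 left of ACHN at each gene. Filled points passed the adjusted p limit of 0.05 and genes with no point were below the count filter. CEP126, YAP1, BIRC3 and BIRC2 are filled above 0 in both lines.

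The genes whose level followed BIRC3 most closely over the 12 libraries, after each line's mean was taken off, were PCMTD1 (Pearson r = 0.988), the complement gene C3 (r = 0.987) and SOD2, the mitochondrial superoxide dismutase gene (r = 0.985). The ranking took in 10046 genes that averaged 5 CPM or more in both lines. The 12 libraries share 4 group means, so the r describes these libraries, and it carries no p. PCMTD1 had log2 fold changes of 0.57 in H226 and 0.35 in ACHN, C3 of 0.34 in H226 and 0.22 in ACHN, and SOD2 of 0.53 in H226 and 0.34 in ACHN.

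Other genes of the pathway were described from 7 lists. The counts of each list are to be read beside the shares called over all tested genes. Those shares were 40.7% in H226, 19.0% higher and 21.6% lower, and 17.8% in ACHN, 8.43% higher and 9.37% lower. Of 19 other death ligand and TNF-family receptor genes, 8 were tested in H226, with 4 higher and 1 lower, and 9 in ACHN, with 2 higher and 1 lower. The TNF receptor TNFRSF1A rose in both lines, by 0.53 ± 0.04 in H226 (312 ± 10.2 CPM with SWTX-143 and 215 ± 7.93 CPM with DMSO) and by 0.23 ± 0.04 in ACHN (147 ± 2.62 CPM with SWTX-143 and 124 ± 4.76 CPM with DMSO). TNFRSF12A, the TWEAK receptor gene, fell in both, by 0.67 ± 0.05 in H226 (115 ± 4.27 CPM with SWTX-143 and 183 ± 7.66 CPM with DMSO) and by 0.21 ± 0.04 in ACHN. TNFRSF21 (DR6), TNFRSF25 (DR3) and NGFR rose in H226, by 0.62, 0.67 and 1.03, and CD40 rose in ACHN by 0.21. The list median was 0.35 in H226 and 0.21 in ACHN.

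Of the adaptor, kinase and caspase genes, 4 of 13 tested were higher and 2 lower in H226, and 1 of 13 was higher and 0 lower in ACHN. CASP6, an executioner caspase gene, rose in both lines, by 0.40 in H226 and by 0.36 in ACHN. In H226, the caspase-8 relative CASP10 rose by 0.89 ± 0.18, the necroptosis effector MLKL by 0.66 and BID, which caspase-8 cleaves, by 0.20, while CASP2 fell by 0.47 (34.6 ± 1.39 CPM with SWTX-143 and 47.7 ± 1.43 CPM with DMSO) and the adaptor FADD by 0.29. The median over this list was 0.11 in H226 and 0.05 in ACHN.

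The list of other IAP genes and IAP antagonists also held genes that are neither, CYCS and ENDOG among them. Of its genes, 2 of 9 tested were higher and 3 lower in H226, and 0 of 7 were higher and 2 lower in ACHN. CYCS, the gene of cytochrome c, fell in both, by 0.50 ± 0.04 in H226 (225 ± 9.15 CPM with SWTX-143 and 317 ± 9.74 CPM with DMSO) and by 0.26 ± 0.04 in ACHN. In H226 the XIAP-binding genes XAF1 and SEPT4 rose by 0.63 and 1.08, and survivin (BIRC5) and ENDOG fell by 0.18 and 0.37. The giant IAP gene BIRC6 fell in ACHN by 0.19, and XAF1 had 0 counts there. The median of these genes was −0.12 in H226 and 0.0038 in ACHN.

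Among 20 TRAF and ubiquitin genes that work with the cIAPs, 7 were higher and 0 lower in H226, and 1 was higher and 0 lower in ACHN. The 1 called in ACHN was TRAF1, an adaptor that binds cIAPs, at 0.65 ± 0.12 (14.2 ± 1.18 CPM with SWTX-143 and 8.92 ± 1.52 CPM with DMSO). In H226 the rises included TRAF1 by 0.44, TNFAIP3 (A20) by 0.49, TRAF6 by 0.27, RBCK1 (HOIL-1) by 0.25 and CYLD by 0.17. Their median was 0.02 in each line.

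NF-kB genes showed 7 of 17 higher and 2 lower in H226, and 3 of 17 higher and 1 lower in ACHN. All 3 that rose in ACHN also rose in H226. The inhibitor NFKBIA rose by 0.37 ± 0.05 in H226 (107 ± 1.72 CPM with SWTX-143 and 81.9 ± 4.97 CPM with DMSO) and by 0.24 ± 0.06 in ACHN (55.6 ± 1.38 CPM with SWTX-143 and 46.6 ± 0.621 CPM with DMSO). RELB, a subunit of the noncanonical pathway, rose by 0.32 in H226 and by 0.35 in ACHN, and BCL3 by 0.61 in H226 and by 0.45 in ACHN. The kinase gene IKBKE rose in H226 by 0.95 ± 0.10 while CHUK, the IKK-alpha gene, fell there by 0.42 and MAP3K14, the gene of the noncanonical kinase NIK, by 0.19. MAP3K8 rose by 0.30 in H226 and fell by 0.62 in ACHN. The median of the 17 was 0.00067 in H226 and 0.05 in ACHN.

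Of the stress genes, 3 of 10 tested were higher and 1 lower in H226, and 0 of 9 were higher and 2 lower in ACHN. In H226 FOXO3, a transcription factor, rose by 0.61, MDM2 by 0.24 and CDKN1A by 0.11, while MYC fell by 0.45. In ACHN the stress factors DDIT3 and ATF4 fell by 0.19 and 0.10. The list median was −0.0034 in H226 and −0.03 in ACHN.

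Of 12 interferon pathway genes, 6 were higher and 0 lower in H226, and 4 were higher and 0 lower in ACHN. IRF1, a transcription factor, rose in both lines, by 0.56 ± 0.09 in H226 (27.2 ± 1.65 CPM with SWTX-143 and 18.4 ± 3.10 CPM with DMSO) and by 0.32 ± 0.08 in ACHN (27.8 ± 1.46 CPM with SWTX-143 and 21.95 ± 2.03 CPM with DMSO). The receptor gene IFNAR1 also rose in both, by 0.24 in H226 and by 0.17 in ACHN. In H226 IRF7, IRF9, IFNGR1 and STAT2 rose by 0.57, 0.51, 0.38 and 0.17. In ACHN IRF2 and IFNGR2 rose by 0.23 and 0.21. The list median was 0.13 in H226 and 0.12 in ACHN.

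**Figure D4:**
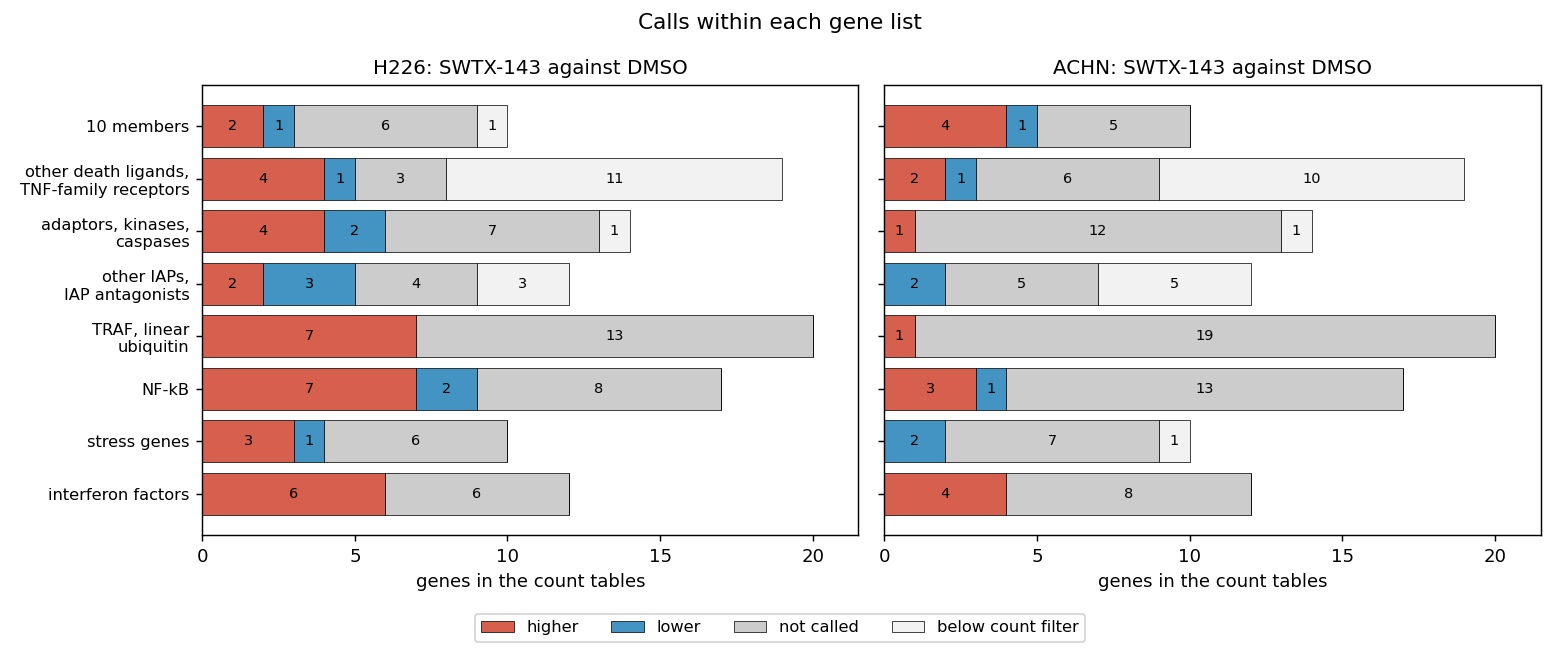
Number of genes (horizontal axis) in each list (rows) that were higher, lower, not called or below the count filter with SWTX-143 against DMSO, H226 on the left and ACHN on the right. In ACHN the 10 genes hold 4 higher and 1 lower, the NF-kB list 3 higher and 1 lower and the TRAF and ubiquitin list 1 higher. Over all tested genes 40.7% were called in H226 and 17.8% in ACHN.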

How the data were processed

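Poly(A) RNA from H226 and ACHN cells, 3 libraries per line and treatment, was read as paired 100-base reads, per the labels' protocols. Per the submitters' processing notes, FastQC, cutadapt and STAR 2.6.1d were used with the build hg19 (GRCh37). How reads were counted, on which strand and over which annotation release is not given in the sources used here. The deposited tables, 1 per line, hold the authors' raw read counts per gene symbol, all whole numbers. Replicate pairs differed by a chi-square of 1.36 to 3.42 per degree of freedom over 12 pairs, which is more than sampling noise.

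Here each line was fitted with edgeR 4.0.16 in R 4.3.3 on the counts (filterByExpr, TMM, robust quasi-likelihood F test, Benjamini-Hochberg over all tested genes, limit 0.05). The 2 cross-line contrasts came from 1 fit of all 12 libraries, and the SE is the fold change divided by the root of F. TMM for CPM was set over the 12 libraries. Alternatives were 3 other scalings, DESeq2 1.42.0, other filters, no robust option, the contrast from the 12-library fit, a replicate block and leaving out each library. The procedure was tested on simulated data. Gene models were GENCODE 29 (GRCh38) and promoters and neighbours RefSeq (GRCh38.p14), used for annotation only.

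The 10 genes and all lists were chosen with earlier results of these data known. A few genes of the lists are not reported here, and the list counts leave them out. Named genes are the 10, up to 4 per list with the smallest p among those called in each line plus called genes counted at 5 or fewer in 1 direction, CTGF, CYR61 and ANKRD1, called neighbours among the nearest 5 genes on each side, and the 3 genes most like BIRC3. Other genes (FASLG, TRAF1, BCL3 and MAP3K8 in H226, IFNAR1 and STAT2 in H226, MSLN, LRRN4, LHX1, CD68, KDR, TMEM123) were named after their values were seen. Counting by direction, which adds MLKL, BID and MAP3K14 in H226, was also chosen then.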

Additional observations from a re-analysis of the deposited data

Results flagged for a closer look

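By the test of the H226 effect minus the ACHN effect, which called 15.6% of 14664 genes, the difference was called for 2 of the 10 genes. It was −0.37 for TNFRSF10D, which was lower with SWTX-143 in H226, and 0.21 for CFLAR, which was lower in ACHN. Neither call was stable: TNFRSF10D was not called under DESeq2 (adjusted p = 0.0859) or without H226 DMSO replicate 1 or H226 SWTX-143 replicate 3, and CFLAR was not called without H226 SWTX-143 replicate 3, ACHN SWTX-143 replicate 2 or ACHN DMSO replicate 2.

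Of the 66 other genes named by rule (46 from the lists and the checks of the drug, 18 called neighbours with 1 gene in both, and the 3 most like BIRC3), 27 had a called difference. Over all genes 5.89% were called with a higher and 9.70% with a lower effect in H226. Most of the 66 were picked because they were called in 1 line or the other, so this count is a description and is not read against those shares. The difference was above 0 for MAP3K8 (0.91), IRF7 (0.80), CASP10 (0.73), IKBKE (0.67), MLKL (0.54), FOXO3 (0.52), TNFRSF21 (0.44), RHOBTB2 (0.37), DDIT3 (0.36), IFNGR1 (0.34), IRF9 (0.31), TNFRSF1A (0.30), FNDC3B (0.24), RBCK1 (0.22), SOD2 (0.19) and MDM2 (0.17). It was below 0 for ANKRD1 (−0.71), TNFRSF12A (−0.47), CASP2 (−0.41), MYC (−0.39), ENDOG (−0.38), FADD (−0.35), CHUK (−0.29), NCEH1 (−0.29), CYCS (−0.25), IFNGR2 (−0.24) and ECT2 (−0.21). MAP3K8 was called in opposite directions in the 2 lines.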

How the results depend on the processing

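Of 331 values of the 10 genes under alternatives other than leaving out a library, 295 kept their direction and side of the limit, 10 passed the limit anew and 4 lost it. The other 22 changed sign, and none of these 22 was past the limit under that alternative. Only TNFRSF10B between the DMSO groups had been called among them (0.16). They were BIRC2 in the line difference (DESeq2 0.0045, median-of-ratios 0.0037, no filter 0.011, upper quartile 0.022), TNFRSF10B in the line difference (0.024, 0.024, 0.031 and 0.042 in the same order, library size alone 0.016) and under DMSO (library size alone −0.0045), CASP8 in H226 (DESeq2 0.0033, median-of-ratios 0.0025, upper quartile 0.043, library size alone 0.034, 1 CPM filter 0.00083, 12-library fit 0.0029), CFLAR in H226 (library size alone 0.015, upper quartile 0.024), FAS in ACHN (library size alone 0.020, upper quartile 0.015, 12-library fit 0.0077) and TNFRSF10A in H226 (upper quartile 0.00024). Leaving out 1 library gave signs on both sides for BIRC2 (−0.066 to 0.12), TNFRSF10B (−0.034 to 0.048) and FAS (−0.11 to 0.019) in the line difference, FAS in ACHN (−0.061 to 0.042), and CASP8 (−0.044 to 0.033), CFLAR (−0.10 to 0.049) and TNFRSF10A (−0.14 to 0.053) in H226. DESeq2 called 1448 genes in ACHN against 2401, 1482 in the line difference against 2286, and 0 of the 10 genes lower there against 1. Library size alone, median-of-ratios, upper-quartile scaling and no filter each put 2 of the 10 higher in the line difference against 1, and library size alone put 1 higher between the DMSO groups against 3. Leaving out 1 library gave 4753 to 5365 called genes in H226 (5486 with all), 1841 to 2174 in ACHN, 1780 to 2253 in the line difference and 12180 to 12253 between the DMSO groups. It left 1 to 2 of the 10 higher in H226, 3 to 5 in ACHN and 0 to 2 in the line difference, and 0 to 2 lower in the line difference. The cause of these changes was not tested.

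Same-numbered libraries did not deviate together (correlations −0.03 to 0.06 in H226 and −0.08 to −0.02 in ACHN), which gave no sign of pairing by replicate number. With 3 libraries per group, this cannot show that the samples were unpaired. A replicate block gave 5744 called genes in H226, 2146 in ACHN, 2328 in the line difference and 11414 between the DMSO groups. Under the block, 2 of the 10 genes were lower in the line difference, as XIAP passed (−0.23, adjusted p = 0.05), and TNFRSF10D lost its call between the DMSO groups (0.22, adjusted p = 0.0555). Depth limited TNFSF10 in H226, where 3 counts corresponded to 0.279 to 0.330 CPM per library.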
